A study of Mus musculus with 16 samples.

Results

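RNA-seq of mouse pulmonary endothelial cells (ECs) was used to follow 7 genes that carry the output of the circadian clock. They were the REV-ERB nuclear receptor genes Nr1d1 and Nr1d2, the PAR bZIP genes Dbp, Tef and Hlf, the bZIP repressor gene Nfil3, and Ciart. These 7 genes, of 54532 in each expression table, were found by gene symbol. They had been chosen by their measured levels in LPS against saline lungs, so their difference between those 2 groups is given as a description, with no p-value.

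Each of the 16 libraries held bulk RNA of lung ECs taken 24 h after an intratracheal dose, by magnetic beads that removed CD45+ cells and then held CD31+ cells. The first experiment had 4 young adult male WT C57/BL6J mice given saline and 6 given LPS at 10 mg/kg. The second gave LPS at 2 mg/kg to 3 Fgfr1 loxP/loxP mice (wt) and to 3 mice with Fgfr1 deleted in ECs (cko). The deletion used a tamoxifen-inducible Cre under the VE-cadherin promoter, and the wt mice were littermates without the Cre. Both genotypes were injected with tamoxifen, per the paper, and no group of the second experiment received saline. The methods give the lower dose as chosen so that the mice survived. The hour of the day at which lungs were taken is not given in the sources used here. Reads on genes ran from 13478726 to 18807007 in the saline libraries, from 17840221 to 19043015 in the LPS libraries, from 15969575 to 17002788 in the wt libraries and from 16642177 to 16943522 in the cko libraries. Levels are FPKM (fragments per kilobase of exon, scaled for library depth), which are per length, so that genes can be compared within a library. Nothing in the labels says more than that each library was a separate sample, so p-values measure the spread between these samples.

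In the circadian clock, the activators BMAL1 (gene Arntl) and CLOCK bind E-boxes and drive the Per and Cry genes, whose proteins repress them in turn. The same E-boxes drive Nr1d1, Nr1d2, Dbp, Tef, Hlf and Ciart. REV-ERB proteins bind the RORE element and repress Arntl and Nfil3 through the NCoR and HDAC3 corepressor complex, and they also restrain inflammatory genes in macrophages. DBP, TEF and HLF activate genes through the D-box, and NFIL3 represses through the same element. CIART (also called CHRONO) represses the activator pair.

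Stretches of the members' promoters are shown because they hold the clock elements by which these genes are usually grouped. All 7 genes matched the RefSeq promoter set (build GRCm38.p6, 250 bases before to 50 after a start site), Tef with 2 start sites. The letters searched on both strands were CACGTG (E-box), CACGTT (a variant E-box), TAGGTCA and TGGGTCA (RORE), and TTATGTAA, TTATGCAA and TTACGTAA (D-box), and none of these holds another. Capitals mark the matched letters, and each line reads 5′ to 3′ on the gene's own strand.
Ciart, chr3:95882252-95882359, minus strand, just upstream of the gene: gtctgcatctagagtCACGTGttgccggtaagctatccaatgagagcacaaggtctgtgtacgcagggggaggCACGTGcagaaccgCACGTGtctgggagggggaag
Nr1d1, chr11:98775385-98775420, minus strand, upstream of the gene: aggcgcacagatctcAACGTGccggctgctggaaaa
Tef, chr15:81811261-81811296, plus strand, within the gene, upstream of its inner start site and in none of its exons: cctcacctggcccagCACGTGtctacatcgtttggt
Nfil3, chr13:52981035-52981061, minus strand, across the RefSeq start site with the marked letters before it, and within the gene as the files place it: cgctcggaacTGACCTActaacacaca
Ciart held 3 E-boxes, a number that 0.0883% of 32851 promoters reach, and each Tef promoter held 1, against 7.15% of promoters with at least 1. Nr1d1 held 1 variant E-box, which 4.68% of promoters hold, and no canonical one. The windows of Dbp, Nr1d2 and Hlf held neither form. Nfil3 was the member with RORE letters, which 6.45% of promoters hold. No member's window held the D-box letters, which 1.78% of promoters hold. A match is a description of the letters, not of binding.

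The library saline 1 stood apart from the other saline libraries, and the members' differences from saline are therefore given with and without it. In saline 1 Dbp stood at 1.92 FPKM, while saline 2, 3 and 4 had 19.1, 25.2 and 22.0. Nfil3 stood at 27.5 FPKM in saline 1 and at 0.825, 1.16 and 1.10 in the others. So for this pair, whose proteins act oppositely at the D-box, saline 1 lay near the LPS libraries, but it did not do so for every member. Ciart, at 32.6 FPKM, was higher in saline 1 than in any of the other 15 libraries, and Nr1d1, at 30.9 FPKM, was far above every LPS library. Outside the 7 genes, Per1, a clock repressor gene that also responds to stress hormones, stood at 133.9 FPKM in saline 1 against 10.8 to 17.9 in the other saline libraries. Cdkn1a, the p21 cell cycle inhibitor, stood at 463.1 against 30.2 to 34.5. Summed over 8 neutrophil markers, of which S100a9 was the most abundant, saline 1 had 1387 FPKM against 70.3 to 305.6 in saline 2 to 4. Epithelial (2848 against 1071 to 2108), mural (121.4 against 26.6 to 51.7) and erythroid markers (25.3 against 6.12 to 13.3) also summed higher in saline 1. So did general leukocyte (233.3 against 73.3 to 166.7) and macrophage markers (34.3 against 19.5 to 25.4), while lymphocyte markers lay inside the range of the others. The 10 endothelial markers summed to 5499 FPKM in saline 1 and to between 3407 and 4240 in the others. Cldn5 stood at 2842 FPKM there against 938.2 to 1362, and Pecam1 and Cdh5 were also above the other saline libraries. Kdr, Tek, Tie1, Erg, Sox17 and Egfl7 were below them, Kdr at 64.8 against 130.7 to 168.6, and Ramp2 was inside their range. The mean log2 level of the list, 8.10, lay inside the 8.05 to 8.27 of the others. What sets saline 1 apart was not tested.

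**Figure D1:**
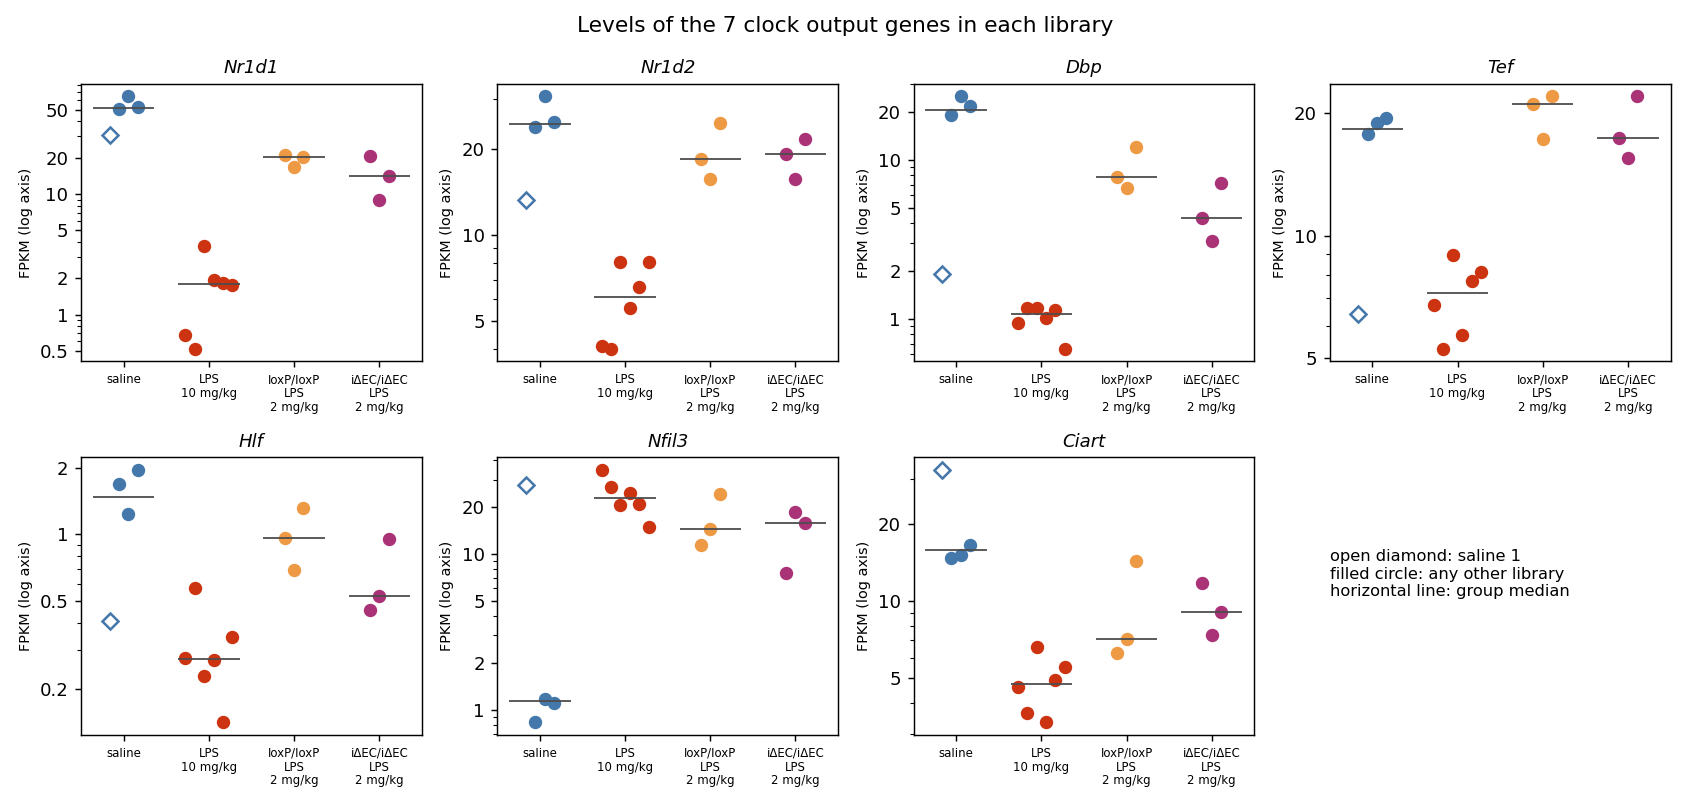
FPKM on a log axis of each of the 7 genes in the 16 libraries, by group, with saline 1 as an open diamond and a line at each group's median. Nr1d1 lies between 30.9 and 64.7 in the saline libraries and between 0.521 and 3.69 in the LPS libraries, and saline 1 lies among the LPS libraries for Tef, Hlf and Nfil3.

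The first comparison asks how the clock output genes stood in ECs 24 h after LPS at 10 mg/kg. Nr1d1, Nr1d2, Dbp, Tef, Hlf and Ciart had lower mean levels in the LPS libraries, and Nfil3 had a higher one. Nr1d1 had the lowest log2 fold change of all 14893 genes tested, and Dbp ranked 9 from the lowest. Past the limits used for a call (limma adjusted p of at most 0.05 and a log2 fold change of 1 or more in size), 4 members were lower, Nr1d1, Nr1d2, Dbp and Ciart, and 1 was higher, Nfil3. Over all genes 6.79% were called lower and 11.9% higher, and nothing is read from the members' counts, since this contrast chose them.

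Nr1d1 encodes REV-ERBα. Its level was 30.9, 50.3, 64.7 and 52.8 FPKM in saline 1 to 4, and the LPS libraries had a lowest value of 0.521, a median of 1.79 and a highest of 3.69 FPKM. Every LPS library lay below every saline library, on 26 to 207 reads against 1259 to 3553. The log2 fold change of FPKM + 1 was -4.27 (SE 0.31), and -4.47 without saline 1. The ratio of the mean FPKM was 28.7-fold lower in LPS. Nr1d2, which encodes REV-ERBβ and overlaps with it in function, had 13.3, 23.9, 30.7 and 25.0 FPKM in saline 1 to 4, and 4.01 to 8.07 with a median of 6.08 in LPS. Its groups did not overlap either, but its log2 fold change was smaller, -1.76 (SE 0.25), and -1.99 without saline 1. The ratio of Nr1d1 to Nr1d2 therefore ran from 2.10 to 2.33 in the saline libraries, saline 1 included, and from 0.130 to 0.458 in the LPS libraries.

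Dbp encodes the PAR bZIP activator with the widest daily swing in many tissues. The LPS libraries had 0.649 to 1.17 FPKM, with a median of 1.07, and all 6 lay below saline 1 (1.92) as well as saline 2 to 4. The log2 fold change was -2.77 (SE 0.51), and -3.52 without saline 1. The mean FPKM was 16.8-fold lower in LPS with saline 1 and 21.8-fold lower without it. Tef had 6.42, 17.7, 18.9 and 19.4 FPKM in saline 1 to 4 and 5.26 to 8.95 in LPS, median 7.23. Saline 1 lay inside the LPS range, and the other saline libraries lay above it. Its log2 fold change was -0.95 (SE 0.27), and -1.30 without saline 1. Hlf was the least abundant PAR bZIP gene, with 0.407, 1.70, 1.24 and 1.95 FPKM in saline 1 to 4 and 0.142 to 0.572 in LPS, on as few as 17 reads. Its groups overlapped only through saline 1. The log2 fold change was -0.78 (SE 0.20), a scale on which such low levels are compressed, and -1.01 without saline 1. It was -1.70 with a pseudocount of 0.1 in place of 1 and -2.11 by limma-voom on the reads recovered from the FPKM.

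The 3 PAR bZIP genes summed to 8.75 FPKM in saline 1, to 38.5 to 45.3 in saline 2 to 4 and to 6.97 to 10.3 in LPS. Dbp made up 49.5 to 55.5% of that sum in saline 2 to 4 and 7.11 to 16.7% in LPS, where Tef made up 75.1 to 89.1%. The sum thus differed between the groups more by Dbp than by Tef or Hlf.

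Nfil3, the repressor at the D-box and a gene also known from immune cells, ran from 14.9 to 34.6 FPKM in LPS with a median of 22.7. Saline 2 to 4 lay near 1 FPKM and saline 1, at 27.5, inside the LPS range. The log2 fold change was 2.61 (SE 0.66), and 3.57 without saline 1. The ratio of the mean levels, 3.10-fold higher in LPS, became 23.1-fold when saline 1 was left out. Ciart had 32.6, 14.8, 15.1 and 16.5 FPKM in saline 1 to 4 and 3.34 to 6.58 in LPS, median 4.75. Its groups did not overlap. The log2 fold change was -1.80 (SE 0.23), and -1.54 without saline 1, the one member whose difference was smaller without that library.

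With all saline libraries, 4 members (Nr1d1, Nr1d2, Dbp and Ciart) had every LPS library below every saline library, where 16.7% of all genes did so, and 0 had every LPS library above, where 22.7% did. Without saline 1, 6 members lay wholly below, against 23.9% of 14768 genes, and Nfil3 lay wholly above, against 29.6%. Then 6 were called lower and 1 higher, beside 7.29% and 13.2% of all genes. All 7 genes passed the filter on low values, Hlf only through its saline level.

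The levels of Nfil3 and Dbp, which act oppositely at the D-box, were also taken as a ratio. Nfil3 stood at 0.0432, 0.0461 and 0.0502 times the Dbp level in saline 2, 3 and 4, at 14.3 times in saline 1, and at 17.6 to 36.6 times in the LPS libraries. The order of the levels turned over accordingly. In saline 2 to 4 the median fell from Nr1d1 (52.8 FPKM) through Nr1d2, Dbp, Tef, Ciart and Hlf to Nfil3 (1.10 FPKM), and the neighbours Nr1d2 and Dbp, and Dbp and Tef, overlapped. In LPS Nfil3 came first, apart from all others, and Tef, Nr1d2, Ciart, Nr1d1 and Dbp followed with overlapping neighbours, ahead of Hlf.

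**Figure D2:**
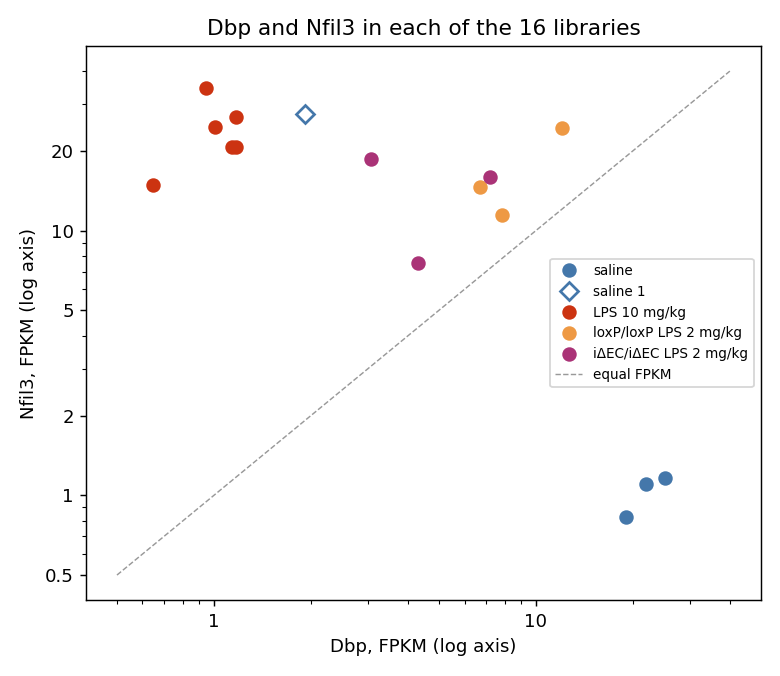
Dbp against Nfil3, both in FPKM on log axes, with 1 point per library and a dashed line at equal levels. Saline 2 to 4 lie at high Dbp and low Nfil3, the LPS libraries and saline 1 at low Dbp and high Nfil3, and the wt and cko libraries between them in Dbp, with Nfil3 1.46 to 6.08 times Dbp.

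Markers of several cell types also differed between the LPS and saline libraries. The 10 endothelial markers, led by Cldn5, averaged -0.72 on the log2 scale in LPS against saline, and 3 of 10 were called lower. The 6 general leukocyte markers, led by Coro1a, averaged 2.84 higher, with 6 of 6 called, although the isolation removed CD45+ cells. Neutrophil markers averaged 2.30 higher with 6 of 8 called, and macrophage markers, led by Csf1r, 2.89 higher with 6 of 8 called. Neutrophil markers summed to 1279 to 6609 FPKM in LPS, and macrophage markers to 307.4 to 701.4 FPKM against 19.5 to 34.3 in saline. Lymphocyte markers (led by Cd79a) averaged -0.71, epithelial markers (Sftpc) -0.57, fibroblast markers (Col3a1) -0.47, mural markers (Acta2) -0.38 and erythroid markers (Hbb-bs) 1.17. Of these, 2 of 4 tested lymphocyte, 2 of 10 epithelial, 0 of 6 fibroblast and 2 of 7 mural genes were called lower and 3 of 4 erythroid genes higher. Without saline 1, 0 lymphocyte, 1 epithelial, 1 fibroblast and 1 mural gene were lower and 1 mural gene higher, and 7 of 8 neutrophil markers rose, with an average of 2.99, while the endothelial, leukocyte, macrophage and erythroid counts were the same. The epithelial average was then -0.27 and the mural average -0.17. No list had a marker at 0 in all libraries. In bulk samples fewer cells of a type and less RNA per cell cannot be told apart, and the part of the cell makeup in the members' differences was not tested. With every library scaled to the same mean level of the endothelial markers, the median of all genes moved to 0.57. On that scale Nr1d1 stood at -3.68, Dbp at -2.23, Ciart at -1.14, Nr1d2 at -1.10, Hlf at -0.50, Tef at -0.29 and Nfil3 at 3.15, so the signs stayed as they were. Without saline 1 as well, they stood at -3.86, -2.91, -0.88, -1.32, -0.67, -0.63 and 4.03 in the same order. Every LPS library then lay below every saline library for Nr1d1 and Ciart alone with all saline libraries, beside 3.52% of 15015 genes. Without saline 1 this also held for Nr1d2, Dbp and Hlf, beside 5.57% of 14911 genes, and Nfil3 lay wholly above, beside 49.6%.

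**Figure D3:**
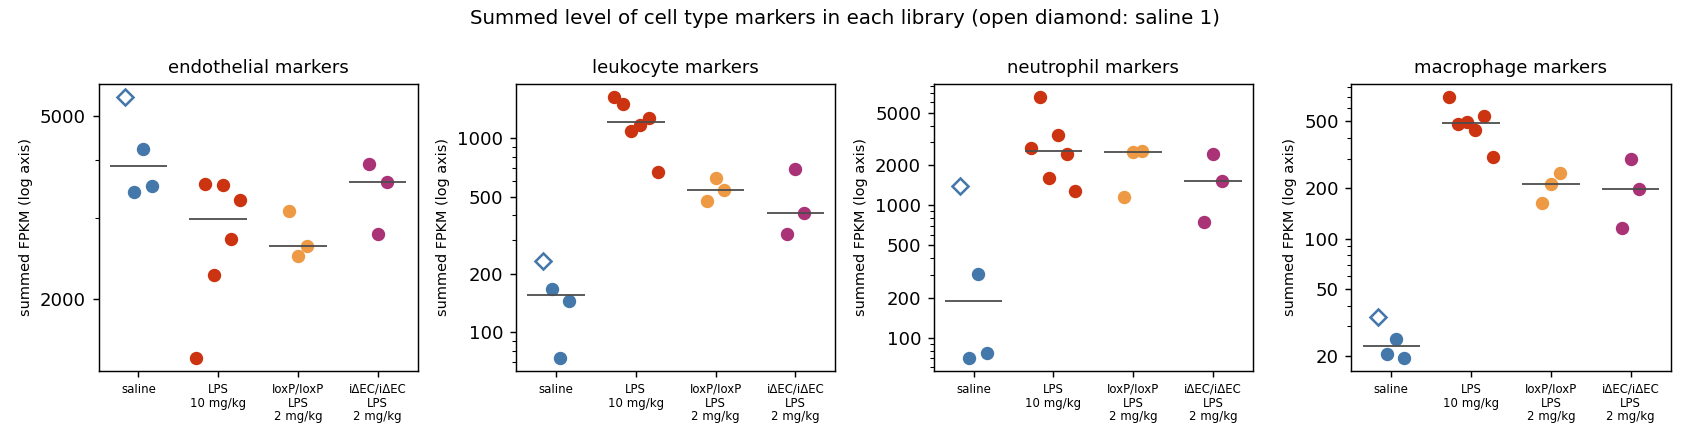
Summed FPKM, on a log axis, of the endothelial, leukocyte, neutrophil and macrophage markers in each library, with saline 1 as an open diamond. Leukocyte markers sum to 73.3 to 233.3 in the saline libraries and to 672.8 to 1641 in the LPS libraries, and neutrophil markers in saline 1 (1387) lie within the LPS range.

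Genes around the members were taken from 4 fixed lists. Of 18 core clock loop genes 13 were tested, 2 rose and 1 fell, with and without saline 1, and the list's median log2 fold change was -0.19 against 0.01 for all genes (0.51 against 0.57 under scaling on the endothelial markers, where 2 rose, or 4 without saline 1, and none fell). Cry1, a repressor of the activator pair, rose by 1.76 (SE 0.13, adjusted p = 2.8e-06), from 3.34 to 5.43 FPKM in saline to 13.8 to 19.8 in LPS, and by 1.87 without saline 1. Bhlhe40, which encodes the E-box repressor DEC1, rose by 2.45 (SE 0.33, adjusted p = 0.00015), and by 2.87 without saline 1. Per3 fell by 1.05 (SE 0.25, adjusted p = 0.0049), and by 1.36 without saline 1, but it missed the limits under quantile normalization (-0.99, adjusted p = 0.0067) and under scaling on the endothelial markers (-0.63, adjusted p = 0.054). Arntl, a REV-ERB target, had a log2 fold change of 0.39 (adjusted p = 0.083), with 1.47 to 3.67 FPKM in saline and 2.55 to 3.69 in LPS. Without saline 1 Arntl had 0.59 (adjusted p = 0.0029), still short of a fold change of 1, and saline 2 to 4, at 1.47 to 1.86 FPKM, lay below every LPS library.

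None of the 5 listed genes of the REV-ERB corepressor complex (Ncor1, Hdac3, Tbl1x, Tbl1xr1 and Gps2) was called with or without saline 1, and their median log2 fold change was -0.01 against 0.01 over all genes. That median was -0.43 against -0.08 under quantile normalization and 0.66 against 0.57 under scaling on the endothelial markers. Tbl1x had a log2 fold change of -0.38 (adjusted p = 0.037), short of the limit of 1, with every LPS library below every saline library. Its fold change was -0.31 (adjusted p = 0.092) without saline 1, and it turned to 0.28 (adjusted p = 0.29) under scaling on the endothelial markers. Of 10 listed genes known to be repressed by REV-ERB in other tissues, 7 were tested and all 7 rose, with and without saline 1. Il6 and Ccl2 passed the filter on low values only through their LPS level and so could only come out higher, and the count is a description. The changes given here are those of Ccl2, a monocyte chemokine (5.55, with no p for that reason), Hmox1, which encodes heme oxygenase 1 (4.67, adjusted p = 1.3e-07), and Nlrp3, an inflammasome sensor gene (3.35, adjusted p = 0.00016), and without saline 1 they were 5.51, 4.85 and 3.80. Ccl2 was between 0 and 0.238 FPKM in saline and between 35.4 and 71.0 in LPS. These genes are also known targets of LPS signalling, and the list was written with earlier results of these data known. The leukocyte and macrophage markers given above moved with them, and their part in the result was not tested. Of 9 other clock-controlled outputs 1 rose, Alas1, the first enzyme of heme synthesis, by 1.15 (adjusted p = 0.00034). It missed the limit of 1 under quantile normalization (0.84, adjusted p = 0.00089) and under scaling on total reads (0.96, adjusted p = 0.00022). In both settings the list had 0 genes called higher and 1 called lower. Without saline 1 the list had 3 genes that rose and 1 that fell, and under scaling on the endothelial markers 7 that rose, with a median of 1.25 against 0.57 over all genes, or 6 without saline 1.

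By the root mean square difference of gene-centred log2 levels over the 10 libraries of the first experiment, the non-member genes most like Nr1d1 were Aplnr (0.50), the apelin receptor gene of ECs, Mir1968 (0.65), Cyp1a1 (0.67), Abi3bp (0.78) and Hmcn1 (0.87). Aplnr had 81.2 to 138 FPKM in saline and 4.20 to 10.8 in LPS. Most like Dbp were 2810030D12Rik (0.44), Ankrd63 (0.49), Ighd2-3 (0.52), Ifi203-ps (0.53) and Gm23251 (0.55). Of these Ighd2-3 had at most 2 reads in any saline library and 0 in LPS, so its place rests on next to no reads, and Gm23251 had 5 to 70 reads in saline and 0 to 10 in LPS. Mir1968 had 8 to 24 reads in saline and 0 to 2 in LPS. Most like Nfil3 were Adam8 (0.30), Socs3 (0.37), Tnfaip2 (0.43) and Gda (0.47). The genes like Nfil3 shared its high saline 1 value: Adam8, a protease gene of leukocytes and other cells, stood at 22.9 FPKM there against 0.731 to 2.56 in saline 2 to 4, and Socs3, a feedback inhibitor of cytokine signalling, at 131.4 against 19.9 to 23.9. These points share libraries, and the likeness is a description.

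Some members share exonic bases with a gene on the opposite strand, and whether the counting used strand is not given in the sources used here. Nr1d1 shares 263 of its 3077 exonic bases with Thra, the thyroid hormone receptor gene, and Dbp shares 539 of 2993 with Sphk2. Thra fell by 1.64 in LPS (adjusted p = 5.1e-05), and by 1.76 without saline 1, from 25.4 to 38.1 FPKM in saline to 6.31 to 13.6 in LPS, though under scaling on the endothelial markers its fold change, -0.95, missed the limit of 1. Sphk2 had a log2 fold change of 0.57, the opposite sign to Dbp. Tef shares 193 of 7867 exonic bases with Gm17597. The files place the genes at chr11:98767932-98775333 (Nr1d1), chr14:18204054-18239127 (Nr1d2), chr7:45705088-45710203 (Dbp), chr15:81802421-81826863 (Tef), chr11:90336536-90390895 (Hlf), chr13:52967209-52981073 (Nfil3) and chr3:95878503-95882251 (Ciart), positions that GENCODE M21 (mm10) shares for all 7.

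The second comparison asks whether the clock outputs differed when Fgfr1 was deleted in ECs, with LPS at 2 mg/kg in both groups. Fgfr1 itself stood at 2.90, 2.91 and 2.59 FPKM in wt 1 to 3 and at 0.683, 1.41 and 1.15 in cko 1 to 3, groups that did not overlap. Its log2 fold change was -0.88 (SE 0.16), with a limma adjusted p of 0.96 over all genes and an exact two-sided permutation p of 0.1, the smallest that 3 against 3 allows. No member passed the test, nor did any gene, so 0% of 14945 genes were called. At an unadjusted limma p under 0.05 there were 661 of the 14945 genes. That share is smaller than the 0.05 such a limit passes when no gene differs.

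Dbp had the largest difference among the members. It stood at 7.86, 6.69 and 12.0 FPKM in wt 1 to 3 and at 4.30, 3.07 and 7.21 in cko 1 to 3, ranges that overlapped. The log2 fold change was -0.78 (SE 0.30, limma adjusted p = 0.96, exact permutation p = 0.2). Same-numbered wt and cko libraries deviated together, and within those 3 pairs the Dbp difference was -0.74, -0.92 and -0.66. With the pair as a block its SE was 0.10 and its limma adjusted p was 0.41, still outside the limit. Nr1d1 had 20.9, 16.6 and 20.3 FPKM in wt and 20.8, 8.91 and 14.0 in cko, a log2 fold change of -0.45 (SE 0.28, limma adjusted p = 0.96). Dbp, Nr1d1, Tef and Hlf were lower in cko in 3 of 3 pairs, as were 12.9% of all genes, though for Nr1d1 in the first pair and for Tef in the third the difference was under 0.01.

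The others differed less or without a common direction. Tef had a log2 fold change of -0.14 (SE 0.16), Hlf of -0.27 (SE 0.19), Nfil3 of -0.27 (SE 0.38), Nr1d2 of -0.04 (SE 0.19) and Ciart of 0.09 (SE 0.31), with limma adjusted p-values from 0.96 to 0.99. The signs for Nr1d2, Nfil3 and Ciart turned when single libraries were left out. Nfil3 had 11.5, 14.5 and 24.4 FPKM in wt and 7.53, 18.7 and 15.9 in cko, and Ciart 6.27, 7.08 and 14.3 in wt and 11.8, 7.35 and 9.08 in cko. In no member were the groups apart, where 10.1% of all genes were. Under scaling on the endothelial markers Nr1d1 (-0.69), Dbp (-0.99), Tef (-0.38) and Hlf (-0.38) lay wholly lower in cko, where 7.19% of 15003 genes did, with limma adjusted p = 0.83 for each. On that scale the median of all genes was -0.18. A p that misses the limit does not show that the levels were alike. In each of the 4 lists 0 genes were called. Among the cell type markers 0 were called. Epithelial markers averaged -0.78 in cko against wt, as large as the Dbp difference, with 2 of 10 wholly lower, neutrophil markers -0.43, and endothelial markers 0.25 with 2 of 10 wholly higher. Their part in the differences was not tested.

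The third comparison sets the wt libraries, LPS at 2 mg/kg, beside the saline libraries of the first experiment. Dose, genotype, tamoxifen and experiment differ between them and cannot be told apart, and the tables were normalized separately, so no test is given. Nr1d1, Nr1d2, Dbp, Tef and Hlf stood above their levels after 10 mg/kg, while the ranges of Nfil3 and Ciart overlapped those of the LPS libraries. Nr1d1 had 16.6 to 20.9 FPKM in wt, below every saline library and above every LPS library, with a log2 difference from saline of -1.28, or -1.49 without saline 1. Dbp, at 6.69 to 12.0 FPKM, likewise lay below saline 2 to 4 and above the LPS libraries, with a difference of -0.51, or -1.25 without saline 1. Scaling on the endothelial markers moved the median of all genes to 0.50 with all saline libraries. On that scale Dbp (0.0076), Nr1d2 (0.37) and Hlf (0.11) had the opposite sign, though each lay below that median. Without saline 1 only Nr1d2 had the opposite sign (0.15), and Dbp stood at -0.69 and Hlf at -0.08. On that scale the Nr1d1 difference was smaller, -0.71, or -0.90 without saline 1. Nr1d2, at 15.8 to 24.8 FPKM, overlapped the saline range, with a difference of -0.19, or -0.43 without saline 1, and Tef, at 17.3 to 22.0, lay around saline 2 to 4 with a difference of 0.45, or 0.09 without saline 1. Tef stood at 0.99 under scaling on the endothelial markers, beside that median of 0.50, or 0.66 without saline 1, wholly above saline in both.

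Nfil3 had 11.5 to 24.4 FPKM in wt, above the 0.825 to 1.16 of saline 2 to 4 and overlapping the LPS libraries. Its difference from saline was 2.12, and 3.07 without saline 1. Ciart, at 6.27 to 14.3 FPKM, lay below every saline library, with a difference of -1.03, or -0.77 without saline 1. Under scaling on the endothelial markers Ciart stood at -0.48, or -0.22 without saline 1, and its groups overlapped in both. Hlf, at 0.693 to 1.31 FPKM, differed by -0.18, or -0.40 without saline 1. Nfil3 was 1.46 to 2.17 times Dbp in wt and 1.75 to 6.08 times in cko, and the ratio of Nr1d1 to Nr1d2 was 0.820 to 1.13 in wt and 0.564 to 1.08 in cko. Neutrophil markers summed to 1157 to 2566 FPKM in wt, inside or just below the range of the LPS libraries, and macrophage markers to 162.3 to 247.9 FPKM, below it.

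The saline libraries here are those whose contrast with LPS chose the members. The members' counts against saline are therefore a description, and nothing is read from them. With all saline libraries 2 members, Nr1d1 and Ciart, had every wt library below every saline library, beside 17.3% of 15336 genes, and 0 had every wt library above, beside 22.4%. Without saline 1 there were 3 below, against 25.9% of 15257 genes, and 1 above, against 31.7%. Under scaling on the endothelial markers, with all saline libraries, Nr1d1 lay wholly below, as did 4.07% of 14990 genes, and Tef wholly above, as did 51.9%. Without saline 1, Nr1d1 and Dbp lay wholly below, beside 7.16% of 14967 genes, and Tef and Nfil3 wholly above, beside 60.7%.

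**Figure D4:**
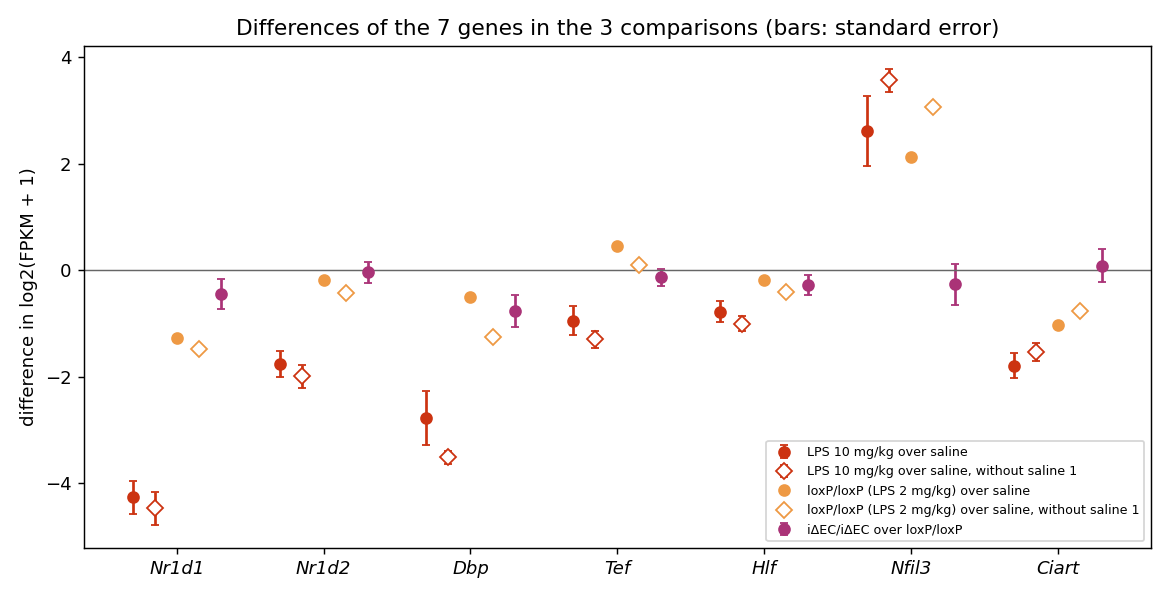
Differences in log2(FPKM + 1) of the 7 genes in the 3 comparisons, with open diamonds for values without saline 1 and standard errors where a model was fitted. Nr1d1 is at -4.27 for LPS over saline, at -1.28 for wt over saline and at -0.45 for cko over wt, while Nfil3 is at 2.61, 2.12 and -0.27.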

How the data were processed

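Bulk RNA-seq of lung ECs was analysed in 16 libraries. Per the labels and the methods the authors aligned reads with HISAT2 2.0.5 to mm10, counted them with featureCounts 1.5.0-p3 and deposited FPKM for each gene in 1 table per experiment. The deposited FPKM gave whole reads (within 0.1) for 100.0% of values above 0 when multiplied by gene length and divided by a unit per library, so depth is known; counting error alone is covered by it. The median-of-ratios factors of the deposited FPKM were already 1 within 0.182%, so between-library scaling was in them.

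FPKM were rescaled by those factors, genes whose mean reached 0.5 FPKM were kept, and log2(FPKM + 1) was fitted with limma 3.58.1 (trend) in R 4.3.3, with Benjamini-Hochberg adjustment over all genes tested. The log scale understates changes of low genes. A call needed an adjusted p of at most 0.05 and a log2 fold change of 1 or more in size. Permutation tests were exact and two-sided. The scripts were tested on simulated data. Deviations from the group means correlated at 0.25, 0.18 and 0.19 within same-numbered wt and cko libraries, so these numbers were taken as pairs. The methods call the wt mice littermates of the cko mice but do not tie library numbers to litters.

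The members, gene lists, markers and motif letters were chosen with earlier results of these data, or the promoter sequences, known. Named were the 7 members, Fgfr1, the core clock list, the 3 largest called changes of each other list, the 5 nearest genes to Nr1d1, Dbp and Nfil3, and the leading markers; genes of saline 1 and genes that overlap members were named after their values were seen. A few genes of the lists and of the nearest genes are not reported here, and the counts of the lists leave them out. Sequences are RefSeq's. The alternatives were another pseudocount, other filters, 5 other scalings, limma-voom on the recovered reads, a replicate block and leaving out each library.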

Additional observations from a re-analysis of the deposited data

Results flagged for a closer look

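In 4 of the 14 groups of at least 4 libraries examined (each of the 7 genes in the saline and in the LPS libraries), 1 library lay farther from its neighbours than Dixon's 95% limit allows. All 4 were saline 1. Dbp was 1.92 FPKM and Tef 6.42 FPKM there, both below the other saline libraries. Nfil3 was 27.5 FPKM and Ciart 32.6 FPKM, both above them. The genes share this library and were chosen with its values known, so the 4 are neither independent nor a test of it. The limit serves as a description only, and no chance count is set against the 4.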

How the results depend on the processing

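In LPS over saline the sign of each member's log2 fold change held in every alternative that gave one (Hlf fell below the filter at a mean of 1 FPKM), and 1 member was called higher in each. The members called lower ranged from 3 (scaling on the endothelial markers and without saline 1, chosen after seeing the data) to 6 (pseudocount of 0.1, limma-voom, no limit on the fold change, or without saline 1), against 4. Of all genes, 1011 were called lower and 1768 higher. A pseudocount of 0.1 gave 1840 lower, or 1886 without saline 1 as well, limma-voom 2008 lower, and no limit on the fold change 3529 lower and 4399 higher. Scaling on the endothelial markers gave 206 lower and 4338 higher, or 253 and 4448 without saline 1, with the median of all genes at 0.57. The split was 1375 higher and 1443 lower under scaling on total reads, which moved that median to -0.14, and 1366 and 1326 under quantile normalization. The saline and LPS libraries share only a number (correlations 0.097, -0.16, -0.21 and -0.12 of same-numbered pairs), and the replicate block gave 1925 higher and 1063 lower.

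In cko over wt no alternative called a gene, and the smallest adjusted p over these fits was 0.12. The replicate block, with the pairing given above, changed no call (smallest adjusted p 0.31, with 1154 of 14945 genes at an unadjusted p under 0.05). Ciart, 0.09, turned to -0.14 under scaling on the endothelial markers, where the median of all genes was -0.18. As single libraries were left out Ciart ran from -0.12 to 0.42, Nr1d2 from -0.19 to 0.13 and Nfil3 from -0.50 to 0.10. In wt over saline, scaling on the endothelial markers turned Nr1d2 to 0.37, Dbp to 0.0076 and Hlf to 0.11, with the median of all genes at 0.50. Without saline 1 these members stood at 0.15, -0.69 and -0.08. Apart from the scaling itself, the causes were not tested. Depth limits Hlf most, with 17 reads in 1 LPS library.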
